A study of Mus musculus with 7 samples.

Results

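Syndecans and glypicans are the main families of heparan sulphate proteoglycans at the cell surface. The 9 genes described here, 4 syndecans (Sdc1, Sdc2, Sdc3 and Sdc4) and 5 glypicans (Gpc1, Gpc2, Gpc3, Gpc4 and Gpc6), were taken by name from a table of 54532 genes counted by RNA sequencing. The cells were C3H10T1/2, a mouse mesenchymal line labelled as mesenchymal stem cells. The control group was 3 libraries of untreated cells, for which no day is recorded. The group labelled as induced for osteoblast differentiation, called OB by the submitters, was 4 libraries of the same line after 3 days in dexamethasone (a glucocorticoid drug), 50 µM L-ascorbic acid and β-glycerophosphate at 10 mM. The labels name penicillin-streptomycin only for the induction medium, and no group received a single agent, so the effects of these agents cannot be told apart. Nor can they be told apart from any difference in time in culture. All libraries came from this 1 cell line, and the design text calls the replicates biological without saying how the cultures were separated.

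A syndecan is a transmembrane core protein with a short cytoplasmic tail, whereas a glypican is held at the outer face of the membrane by a lipid (glycosylphosphatidylinositol) anchor. Both carry heparan sulphate, a long sulphated sugar chain that binds growth factors, morphogens and matrix proteins and presents them to their receptors. In cells of the bone lineage these proteoglycans are known as co-receptors and regulators of fibroblast growth factor, bone morphogenetic protein, Wnt and Hedgehog signals.

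The 4 syndecan proteins end in a short cytoplasmic motif that binds scaffold proteins. The last 60 coding bases of each messenger RNA, stop codon included, are shown so that the members can be told apart and compared. Capitals mark the 14 bases that are identical in all 4 genes when the sequences are aligned at the stop codon without gaps. They were read from the GENCODE M21 transcripts (GRCm38).
Sdc1: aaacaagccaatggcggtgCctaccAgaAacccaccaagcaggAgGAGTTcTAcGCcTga
Sdc2: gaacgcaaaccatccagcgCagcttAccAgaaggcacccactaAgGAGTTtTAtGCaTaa
Sdc3: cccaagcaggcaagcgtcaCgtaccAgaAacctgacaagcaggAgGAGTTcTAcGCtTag
Sdc4: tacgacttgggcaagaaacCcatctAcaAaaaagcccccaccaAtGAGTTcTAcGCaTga
Sdc1 and Sdc3 were the most alike pair at 38 of 60 identical bases (63.3%), and Sdc2 and Sdc3 the least alike at 22 of 60 (36.7%). No 50-base word in the annotated transcripts of Sdc4, Gpc3, Gpc4 or Gpc6 recurs in the transcripts of other genes. The share of words that do was 0.782% for Sdc1, 1.98% for Sdc2, 5.36% for Sdc3, 18% for Gpc1 and 49.7% for Gpc2.

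The members lie apart in the mouse genome. In mm10 coordinates, Sdc1 (ENSMUSG00000020592) spans 8771323 to 8793715 on chromosome 12, Sdc2 (ENSMUSG00000022261) 32920723 to 33034935 on chromosome 15, Sdc3 (ENSMUSG00000025743) 130792537 to 130826319 on chromosome 4 and Sdc4 (ENSMUSG00000017009) 164424247 to 164443887 on chromosome 2. Sdc4 is on the minus strand and the other 3 on the plus strand. Gpc1 (ENSMUSG00000034220) spans 92831645 to 92860779 on the plus strand of chromosome 1, Gpc6 (ENSMUSG00000058571) 116925315 to 117976544 on the plus strand of chromosome 14 and Gpc2 (ENSMUSG00000029510) 138273655 to 138280005 on the minus strand of chromosome 5. The exception is Gpc4 (ENSMUSG00000031119) and Gpc3 (ENSMUSG00000055653), near each other on the X chromosome.

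For 3 members annotated exons overlap those of another gene, and by the counter's defaults a fragment that falls on both genes is dropped. The share of exon bases was 7.73% for Sdc3 (with Gm26716 on the opposite strand), 18.9% for Gpc1 (mostly Ankmy1, opposite strand) and 55.6% for Gpc2 (mostly Gm43720, same strand). Gm26716 and Gm43720 had 0 counts in every library. Ankmy1 stood at 0.255 to 0.317 CPM in control and 0.284 to 0.463 CPM in OB. Fragments on shared bases are missing from these values too, so they do not show how many fragments the members lost. CPM (counts-per-million of the library) used totals multiplied by a TMM factor, which corrects for differences in composition.

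Total counts on genes were 21213328 to 46530017 per library. All 11 listed mesenchymal markers passed the filter on low counts. Vim (vimentin) stood at 5771 to 6343 CPM in control and 5295 to 6321 CPM in OB. The lowest was Nt5e, at 0.171 to 0.340 CPM in control and 0.447 to 0.992 CPM in OB. By edgeR 1 of them, Pdgfra, was called higher (log2 fold change 1.54, adjusted p = 0.0182) and 0 lower. Col1a1 had a log2 fold change of -0.78 without overlap of the libraries and did not pass (edgeR adjusted p = 0.0751). Markers of osteoblasts were not called higher by edgeR: of 8 listed, 4 passed the filter, with 0 higher, 0 lower and a median log2 fold change of -0.43, and DESeq2 called 1 higher. Runx2, the transcription factor of the lineage, stood at 85.7 to 112 CPM in control and 66.4 to 80.6 CPM in OB. In OB the alkaline phosphatase gene Alpl was at most 0.139 CPM, the osteocalcin gene Bglap at most 0.207 CPM and Sp7 at most 0.370 CPM. Spp1 stood at 336 to 582 CPM in control and 101 to 674 CPM in OB. Dlx5 had 14.7 to 19.8 CPM in control and 13.4 to 16.8 CPM in OB, and Dmp1 0.313 to 3.25 and 0.211 to 0.579 CPM. Ibsp was at most 0.0397 CPM in control and 0.609 CPM in OB. The name OB is used below for the treated group and not for a cell type. The 6 epithelial markers summed to 1.319 to 3.385 CPM in control and 0.3704 to 1.3 CPM in OB, with Epcam and Cldn4 at 0 in all 7 libraries. The 6 endothelial markers summed to 2.379 to 9.445 CPM in control and 3.334 to 8.059 CPM in OB, mostly Tek, with Tie1 at 0. The 6 macrophage markers summed to 9.826 to 13.76 CPM in control and 7.398 to 12.72 CPM in OB, mostly Cd14 and Cd68, with Adgre1 at 0. Glucocorticoid receptor targets were higher for 8 of 9 genes. Summed levels of 13 proliferation markers were 967.6 to 2997 CPM in control and 566.4 to 692.7 CPM in OB, and 11 of them were lower by edgeR. Whether the fall in proliferation markers has a part in the results below was not tested. By their descriptions the libraries also form 3 label sets: C1 (control 1, OB 1), C2 (control 2, OB 2) and those with no C number (control 3, OB 3, OB 4). What these sets stand for is not given. Values within them are printed beside the pooled ones. Fits on the set with no C number rest on 1 control library, control 3, and called 3052 genes higher and 3413 lower of 16128 tested.

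Induction of the cells was followed by lower Gpc1 and Sdc3 levels, while no member was called higher. Mean Gpc1 fell from 349 ± 30.1 to 180 ± 34.5 CPM and mean Sdc3 from 110 ± 21.1 to 51.6 ± 14.5 CPM (± SD over 3 control and 4 OB libraries). Of the 9 members 7 passed the filter, and 2 of these 7 were lower, 0 were higher and 5 did not pass at an adjusted p under 0.05. Genes were tested by edgeR's quasi-likelihood method, and p-values were adjusted by Benjamini-Hochberg over 15441 genes, of which 3.72% were lower, 4.32% higher and 8.04% changed in either direction. At an unadjusted p under 0.05 edgeR had 3 members lower and 1 higher. DESeq2, and limma-voom with each library weighted by its estimated quality, both called 3 members lower and 0 higher. Libraries of the groups did not overlap for 3 members, Gpc1, Sdc3 and Sdc2, beside 25.5% of all genes tested. The median log2 fold change was -0.21 over the 4 syndecans and -0.0004 over the 3 glypicans tested, beside -0.004 over all genes tested. In these bulk libraries, fewer cells that express a gene and less RNA of it per cell cannot be told apart.

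**Figure D1:**
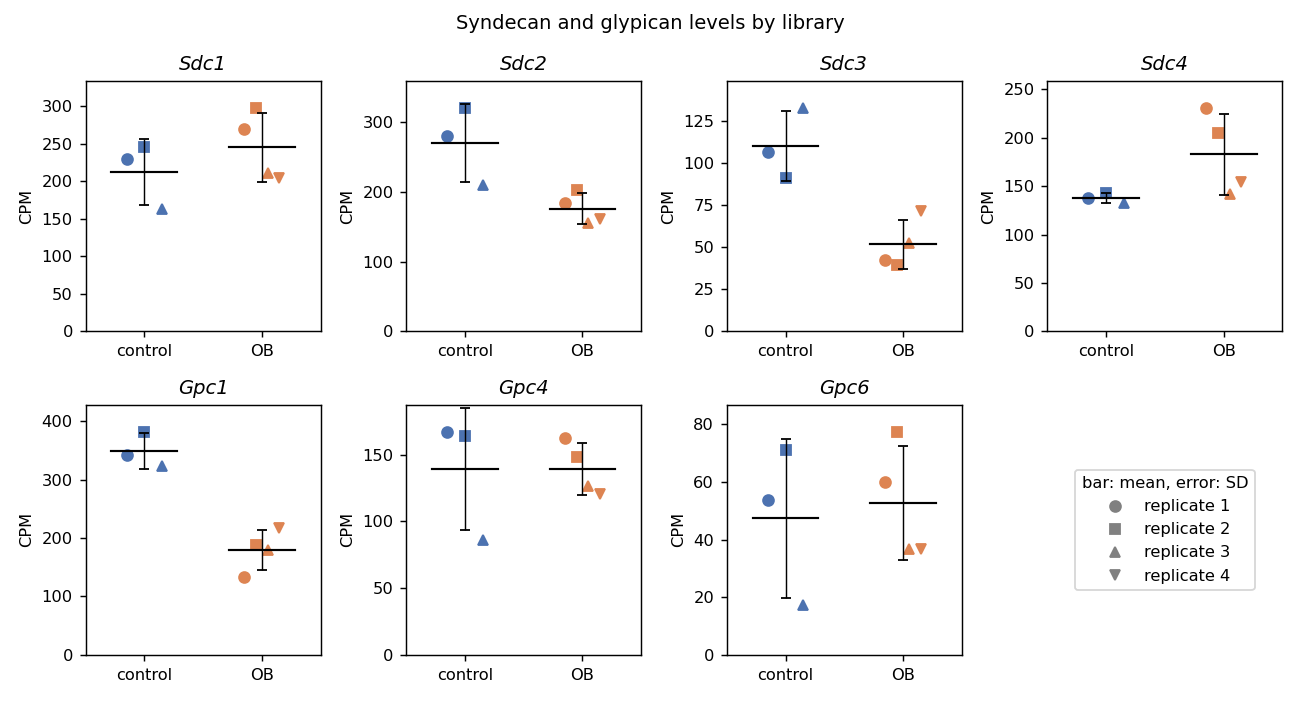
CPM of the 7 members that passed the filter, by library, in control (blue) and OB (orange), with the marker giving the replicate number, the horizontal bar the mean and the error bar the SD. Gpc1, Sdc3 and Sdc2 lie lower in every OB library than in any control library, and control 3 lies far below control 1 and 2 for Gpc4 and Gpc6.

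Sdc3, also called N-syndecan, is best known from nerve and muscle. Control 1, 2 and 3 had 106, 91.2 and 133 CPM of Sdc3, against 42.6, 39.6, 52.7 and 71.6 CPM for OB 1, 2, 3 and 4. Control 3 was the highest of all, and OB 4 came closest to the control libraries without reaching them. The log2 fold change was -1.09 ± 0.22 (SE), with edgeR adjusted p = 0.0276. Within the label sets the log2 difference in CPM of OB from control was -1.32 in C1, -1.20 in C2 and -1.11 in the libraries with no C number. The call ended without control 2 or 3 or without OB 1, 2 or 3 (edgeR adjusted p = 0.0557 to 0.0874). The log2 fold change stayed between -1.29 and -0.94 over the 7 libraries left out in turn.

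Sdc2, the fibroglycan of connective tissue cells, was at 281, 321 and 210 CPM in control 1 to 3 and at 184, 203, 156 and 161 CPM in OB 1 to 4. Every OB library was below every control library, with control 3 only slightly above OB 2. The log2 fold change of -0.62 ± 0.17 (SE) did not pass (edgeR adjusted p = 0.0587). It passed with the replicate number as a block (edgeR adjusted p = 0.0356), with the label set as a block (0.0124), by DESeq2 (0.0161) and by limma-voom (0.00617). The replicate block leaves OB 4 alone in its block, so the OB effect there comes from the other libraries. Without control 3 Sdc2 also passed (edgeR adjusted p = 0.0213), at a log2 fold change of -0.78. The within-set differences were -0.61 in C1, -0.66 in C2 and -0.41 in the libraries with no C number.

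Sdc4 is the widely expressed syndecan of focal adhesions, where its tail engages protein kinase C alpha. Its control libraries were close together at 137, 143 and 133 CPM, whereas OB 1 to 4 stood at 231, 205, 142 and 154 CPM. OB 1 and OB 2 were well above all controls, while OB 3 lay between control 1 and control 2. On the log2 scale the change was 0.41 ± 0.18 (SE, 95% interval 0.0002 to 0.83), with edgeR adjusted p = 0.198. Within the C1 and C2 libraries, 2 against 2, Sdc4 passed at 0.64 ± 0.10 (edgeR adjusted p = 0.0222). In the libraries with no C number, 1 control against 2 OB, it did not, at 0.15 ± 0.11 (edgeR adjusted p = 0.310). The difference between these effects, tested as an interaction in edgeR, was -0.48 ± 0.14 (adjusted p = 0.0956).

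Sdc1, the syndecan typical of epithelial and plasma cells, was nevertheless abundant here. It had 229, 245 and 162 CPM in control 1 to 3 and 269, 297, 210 and 203 CPM in OB 1 to 4, so that the groups overlapped. Its log2 fold change was 0.21 ± 0.19 (SE, 95% interval -0.24 to 0.66, edgeR adjusted p = 0.546). Each label set on its own gave a higher OB level, by 0.23 in C1, 0.28 in C2 and 0.35 in the libraries with no C number. With the label set as a block the value was 0.29 ± 0.08, which did not pass (edgeR adjusted p = 0.0555). Against control 3 alone, in the libraries with no C number, it passed (edgeR adjusted p = 0.0282). The summed level of 6 plasma cell markers was 60.77 to 88.1 CPM in control and 60.33 to 70.33 CPM in OB, nearly all of it Xbp1. Of these markers Pou2af1 was called higher, from 0.0397 to 0.142 CPM in control to 0.463 to 1.46 CPM in OB (log2 fold change 3.30, edgeR adjusted p = 0.0177), while Tnfrsf17 and Jchain were at most 0.117 CPM. Their part in the Sdc1 level was not tested.

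Among the glypicans, Gpc1 is the broadly expressed member that binds fibroblast growth factors through its chains. Gpc1 stood at 342, 382 and 323 CPM in control 1 to 3 and at 134, 188, 180 and 217 CPM in OB 1 to 4. The lowest control library was well above the highest OB library, and OB 1 was the lowest of all. The log2 fold change was -0.96 ± 0.17 (SE), with edgeR adjusted p = 0.0172, and its mean was 1.94-fold higher in control. The call ended only without control 2 among the 7 libraries left out in turn (edgeR adjusted p = 0.0642, log2 fold change -0.90). Within the label sets the log2 difference was -1.35 in C1, -1.02 in C2 and -0.71 in the libraries with no C number. The interaction of treatment with label set was 0.46 ± 0.28 (edgeR adjusted p = 0.332).

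Gpc4 and Gpc3 lie near each other on the minus strand of the X chromosome, at 52053021 to 52165252 and 52272426 to 52613950 in mm10, yet their levels were far apart. Gpc4, a glypican of many tissues, had 167, 164 and 86.5 CPM in control 1 to 3 and 163, 148, 126 and 120 CPM in OB 1 to 4. Control 3 was the lowest library and control 1 the highest, so the OB libraries lay between controls. The log2 fold change was -0.0004 ± 0.24 (SE, 95% interval -0.54 to 0.54, edgeR adjusted p = 0.999). Its direction turned with the label set. C1 and C2 together gave -0.09 ± 0.09 (edgeR adjusted p = 0.556), and the set with no C number 0.50 ± 0.11 (0.00471). The second value rests on control 3 alone. The interaction was 0.61 ± 0.13 (edgeR adjusted p = 0.0459), beside 6.5% of all genes that passed this test.

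Gpc6, the closest relative of Gpc4, had 53.7, 71.1 and 17.2 CPM in control 1 to 3 and 60.1, 77.5, 36.8 and 36.9 CPM in OB 1 to 4. Control 3 was again the lowest, and the groups overlapped. The pooled log2 fold change was 0.16 ± 0.46 (SE, 95% interval -0.91 to 1.22, edgeR adjusted p = 0.865), the widest interval of the 7 members tested. C1 and C2 together gave 0.15 ± 0.18 (edgeR adjusted p = 0.654) and the set with no C number 1.08 ± 0.13 (0.000177), a value that rests on control 3 alone. The interaction was 0.96 ± 0.28 (edgeR adjusted p = 0.0896). Without control 3 the pooled log2 fold change was -0.24.

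Gpc3, a glypican that restrains Hedgehog signalling and body growth, had 5, 8 and 0 counts in control 1 to 3 and 1, 0, 3 and 2 counts in OB 1 to 4. The pooled level was 0.121 CPM in control (95% exact Poisson interval 0.0645 to 0.207) and 0.0531 CPM in OB (0.0195 to 0.116). Gpc2, known from the developing nervous system, had 3, 1 and 4 counts in control 1 to 3, against 1, 0, 5 and 9 counts in OB 1 to 4. Its pooled level was 0.0745 CPM in control (0.0322 to 0.147) and 0.133 CPM in OB (0.0743 to 0.219). The intervals, which cover counting error only, overlap for both genes. For scale, 3 counts in 1 library correspond to 0.0638 to 0.139 CPM. A difference between the groups was not detectable at this depth for Gpc2 or Gpc3, neither of which passed the filter. For Gpc2, 55.6% of exon bases overlap those of other genes, so its counts and levels may be too low.

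**Figure D2:**
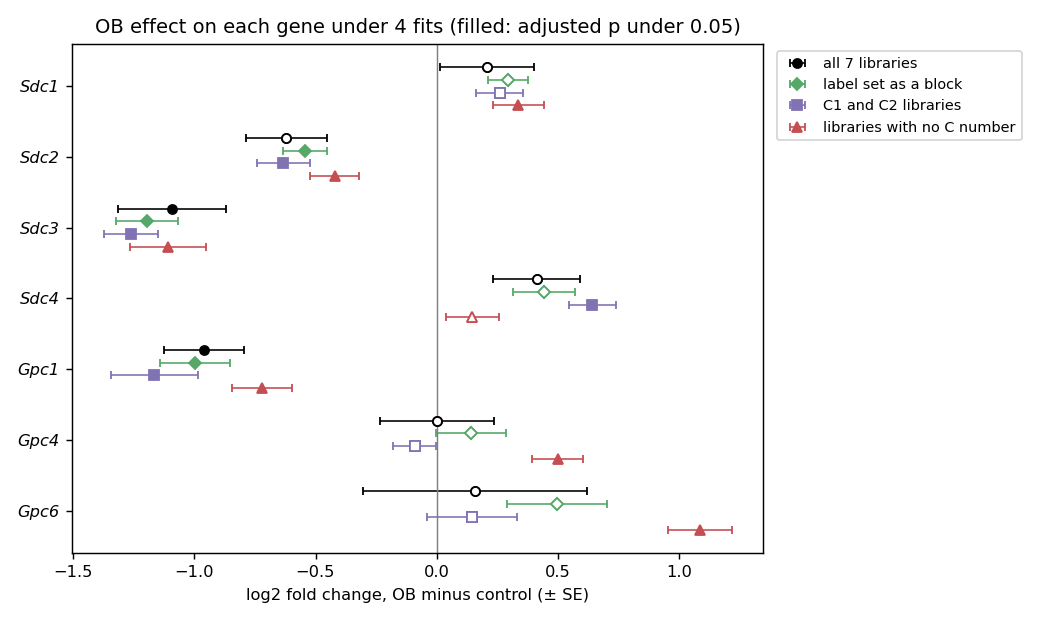
Log2 fold change of OB against control with its SE for the 7 members tested, from edgeR fits on all 7 libraries, with the label set as a block, on the C1 and C2 libraries and on the libraries with no C number. Filled markers passed at an adjusted p under 0.05: Sdc3 and Gpc1 lie below 0 and are filled in all 4 fits, while Gpc4 and Gpc6 are filled only in the libraries with no C number, above 0.

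Levels were also compared between genes, as CPM per kb of merged exon length. In control the order of the means was Sdc2 (76.7 ± 15.9 CPM per kb, SD, n = 3), Gpc1 (67.7 ± 5.84), Sdc1 (55.7 ± 11.5), Sdc4 (54.0 ± 2.02) and Gpc4 (52.6 ± 17.3). Neighbours among these 5 overlapped over the libraries. Sdc3 (18.4 ± 3.52) lay below all of them, and Gpc6 (7.37 ± 4.28) below Sdc3. In OB the order was Sdc4 (71.9 ± 16.5 CPM per kb, SD, n = 4), Sdc1 (64.3 ± 12.0), Gpc4 (52.6 ± 7.40) and Sdc2 (49.9 ± 6.16), each overlapping its neighbour. Gpc1 followed at 34.8 ± 6.68 CPM per kb, below Sdc2 in every OB library, and then Sdc3 (8.62 ± 2.41) and Gpc6 (8.22 ± 3.08), which overlapped. Sdc2 or Gpc1 ranked first and second in all 3 control libraries, and Sdc4 and Sdc1 in all 4 OB libraries. By the length of the longest coding transcript the OB order of this pair turned, with mean shares of 23.89% for Sdc1 and 22.86% for Sdc4. The control order of Sdc2 and Gpc1 turned by that length too, with Gpc1 first. Without division by length both orders turned as well. The 18.9% of Gpc1 exon bases that overlap other genes stayed in its length, so its level per length may be too low.

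The shares of the summed level per length describe this change in order without the scaling of libraries. Gpc1 made up 20.5% ± 2.04 (SD, n = 3) of the sum in control and 12.2% ± 3.33 (SD, n = 4) in OB, and Sdc2 22.9% ± 1.31 and 17.2% ± 0.513. Sdc4 made up 16.5% ± 2.17 in control and 24.6% ± 2.89 in OB, and Sdc1 16.6% ± 0.979 and 22.0% ± 1.52. The libraries of the groups did not overlap for any of these 4 shares, which are not independent of each other because they add up to a fixed sum. The shares of Sdc3, Gpc4 and Gpc6 overlapped. That of Gpc4 averaged 15.5% in control and 18.1% in OB, though its mean level was 52.6 CPM per kb in both. The 4 syndecans together had 1.53, 1.54 and 1.80 times the summed level per length of the 5 glypicans in control 1 to 3, and 2.28, 2.13, 1.85 and 1.84 times in OB 1 to 4. Control 3 came close to OB 3 and OB 4 in this ratio. These shares and ratios were not tested.

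**Figure D3:**
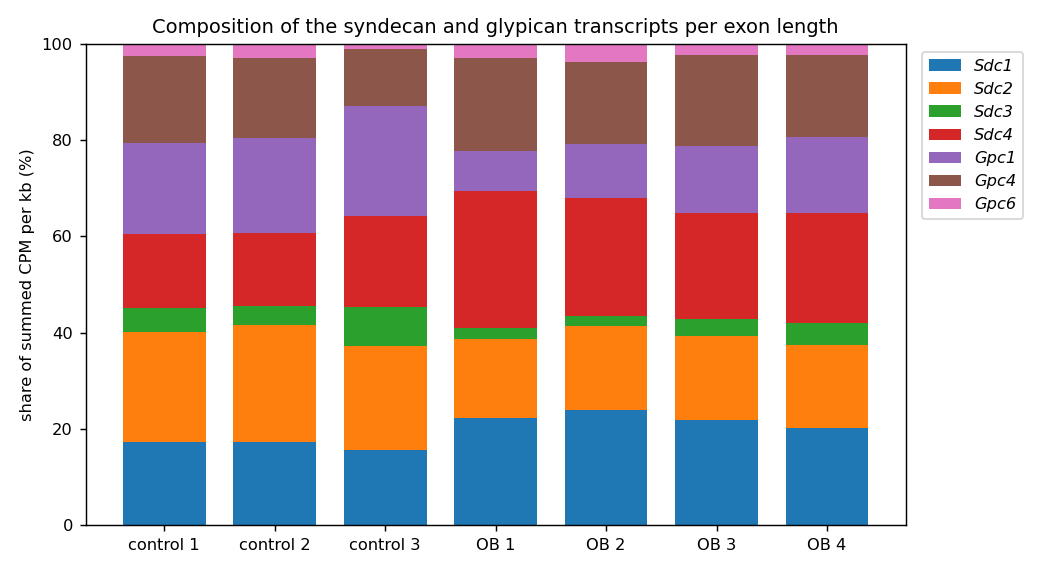
Share of each member in the summed CPM per kb (percent, stacked to the full sum) in each of the 7 libraries, without Gpc2 and Gpc3, which were too rare to be seen. Gpc1 shrinks from 19.0% to 22.9% of the sum in the control libraries to 8.16% to 15.8% in the OB libraries, and Sdc4 widens from 15% to 19.0% in control to 22.1% to 28.6% in OB.

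The promoters were examined because some members of these families fell and others did not. RefSeq sequences (GRCm38.p6) of the 250 bases before the transcription start matched 6 members by symbol: Sdc1, Sdc3, Sdc4, Gpc2, Gpc3 and Gpc4. No window was found for Gpc1, Sdc2 and Gpc6. Of the 2 members called lower only Sdc3 had one, so members that fell cannot be compared with the others. By the M21 annotation the Gpc4 window lies wholly in exon, and 73 bases of the Sdc1 window and 68 of the Gpc2 window are exonic. Printed are those of Sdc3, which fell, and of Sdc4, the member of highest mean level per merged exon length in OB. The windows lie at chr4:130792287-130792536 on the plus strand and chr2:164443189-164443438 on the minus strand, the second inside the annotated span of Sdc4 but in no M21 exon. Capitals mark GC boxes, GGGCGG or CCGCCC on the strand shown.
Sdc3: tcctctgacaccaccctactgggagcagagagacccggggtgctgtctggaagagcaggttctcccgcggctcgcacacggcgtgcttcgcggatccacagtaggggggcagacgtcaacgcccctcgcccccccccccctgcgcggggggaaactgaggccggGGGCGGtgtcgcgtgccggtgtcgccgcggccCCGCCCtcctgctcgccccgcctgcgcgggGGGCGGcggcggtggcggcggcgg
Sdc4: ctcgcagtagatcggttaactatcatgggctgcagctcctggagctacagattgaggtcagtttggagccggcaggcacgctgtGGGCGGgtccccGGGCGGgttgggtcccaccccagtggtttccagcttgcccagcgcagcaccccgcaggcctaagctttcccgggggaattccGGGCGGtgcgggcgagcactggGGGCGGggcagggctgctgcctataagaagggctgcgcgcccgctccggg
The Sdc3 window held 3 GC boxes and the Sdc4 window 4, counted on both strands. All 6 windows held at least 1, beside 32.7% of 32851 RefSeq promoter windows of the same length. Their GC content was 66.0% to 76.4%, beside a median of 52.4% over all windows. None of the 6 held the letters TATAAA (12.4% of all windows) or TGANTCA of AP-1 (6.75%), or the palindrome of the glucocorticoid response element (0.387%), on either strand. These are matches of letters only, and no binding was measured here.

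Genes that build, trim and use heparan sulphate were counted in 8 lists holding 106 genes of the table, 84 of them tested. Values given for these genes are means ± SD over the 3 control and then the 4 OB libraries. By edgeR 3 of the 84 passed as higher and 2 as lower, beside 4.32% higher and 3.72% lower of all genes tested. The other 79 missed the threshold, and the median log2 fold change was 0.07. The lists were not tested as sets. With the replicate number as a block 5 were higher and 5 lower, beside 831 higher and 522 lower of all 15441 genes.

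Among other carriers of heparan sulphate, Tgfbr3 rose from 47.2 ± 2.17 to 99.0 ± 21.5 CPM. Tgfbr3 encodes betaglycan, a co-receptor of the TGF-beta family. Col18a1, the gene of a basement membrane collagen with heparan sulphate chains, fell from 68.0 ± 6.49 to 36.1 ± 8.44 CPM. Their log2 fold changes were 1.07 ± 0.17 and -0.92 ± 0.18 (edgeR adjusted p = 0.0131 and 0.0257). The call of Col18a1 ended with the replicate block (edgeR adjusted p = 0.0519), in the C1 and C2 libraries alone (0.0997) and without control 2, OB 3 or OB 4 (0.0655 to 0.0880). That of Tgfbr3 ended without control 2 (0.0534). The other 6 of 8 tested genes of this list did not pass. Of the 8 genes 7 had positive log2 fold changes and 1 a negative one, with a median of 0.74. Whether they moved as a set was not tested.

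Chain synthesis genes gave no call by edgeR on all libraries without a block. Of 15 genes for the linker and precursors 0 were higher and 0 lower, with 1 higher and 0 lower at an unadjusted p under 0.05 and no call by DESeq2 or limma-voom. Ugdh, which makes the uronic acid precursor, stood at 287 ± 35.2 and 248 ± 22.5 CPM, and Ugp2, which makes UDP-glucose, at 133 ± 13.7 and 152 ± 10.8 CPM. Of 4 tested polymerase genes 0 were higher and 0 lower, while 1 was lower at an unadjusted p under 0.05 and by DESeq2 and limma-voom. With the label set as a block edgeR also had 1 lower and 0 higher. The chain polymerase gene Ext2 stood at 182 ± 33.5 and 184 ± 23.6 CPM, and Extl3, which starts the chain, at 96.3 ± 10.3 and 101 ± 21.6 CPM. Of 8 tested genes that modify the chain, edgeR, DESeq2 and limma-voom called 0 in either direction, with 1 lower at an unadjusted p under 0.05. With the replicate block 1 was lower and 0 were higher, and with the label set block 1 was higher and 1 lower. The N-deacetylase and N-sulfotransferase gene Ndst1 stood at 166 ± 31.7 and 205 ± 36.4 CPM, and Ndst2 at 62.8 ± 9.25 and 60.7 ± 5.19 CPM. The log2 fold changes of these 6 genes were -0.21 to 0.31, with edgeR adjusted p = 0.309 to 0.958. With the label set as a block Ndst1 passed at 0.39 ± 0.08 (edgeR adjusted p = 0.0270).

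Chain removal was represented by 11 tested genes, 10 of which had positive log2 fold changes, with a median of 0.33. Over all genes tested 50.4% had negative log2 fold changes, and the median was -0.004. Whether the list moved as a set was not tested. Sulf2, an extracellular sulfatase that trims the chains, stood at 185 ± 112 and 262 ± 70.9 CPM and did not pass (edgeR adjusted p = 0.517).

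Core proteins are cut by convertases, sheddases and lipases. Of 10 tested genes of this kind edgeR called 0 higher and 0 lower, with 3 and 1 at an unadjusted p under 0.05. DESeq2, limma-voom and the replicate block each had 1 higher and 1 lower. Mmp14, a membrane-bound metalloproteinase that can shed syndecans, stood at 531 ± 133 and 911 ± 169 CPM, without overlap of the libraries. Its log2 fold change of 0.78 ± 0.21 missed the threshold (edgeR adjusted p = 0.0641) and passed with the replicate block (0.0185). The gelatinase gene Mmp2 stood at 560 ± 215 and 850 ± 154 CPM (edgeR adjusted p = 0.233). Its groups all but touched, at no more than 701.2 CPM in control and no less than 701.7 CPM in OB. Mmp2 passed with the label set as a block (0.0246) and in the C1 and C2 libraries alone (0.0379), and missed with the replicate block (0.0582).

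Partners of the syndecan tail and integrins gave 0 higher and 0 lower of 14 tested by edgeR, with 1 higher and 2 lower at an unadjusted p under 0.05. By DESeq2 1 was lower and 0 were higher, and by limma-voom 1 was higher and 0 were lower. Actn1, which encodes the actin cross-linker alpha-actinin, stood at 377 ± 32.7 and 450 ± 12.0 CPM, and the integrin beta subunit gene Itgb1 at 882 ± 152 and 931 ± 80.2 CPM (edgeR adjusted p = 0.163 and 0.779).

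Of the ligands that heparan sulphate binds, Fgf2 rose from 5.58 ± 2.01 to 17.8 ± 1.76 CPM, by 1.67 ± 0.25 on the log2 scale (edgeR adjusted p = 0.0120). Fgf2 encodes a fibroblast growth factor that needs heparan sulphate to bind its receptors well. Hgf, which encodes hepatocyte growth factor, fell from 154 ± 32.2 to 71.2 ± 10.6 CPM, with -1.12 ± 0.17 on the log2 scale (edgeR adjusted p = 0.0127). The calls of Fgf2 and Hgf held whichever library was left out. The other 12 of 14 tested ligand genes did not pass, and the median of the list was -0.34. In this list 1 gene was higher and 3 were lower by DESeq2, 2 and 4 by limma-voom, and 2 and 3 with the replicate block.

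**Figure D4:**
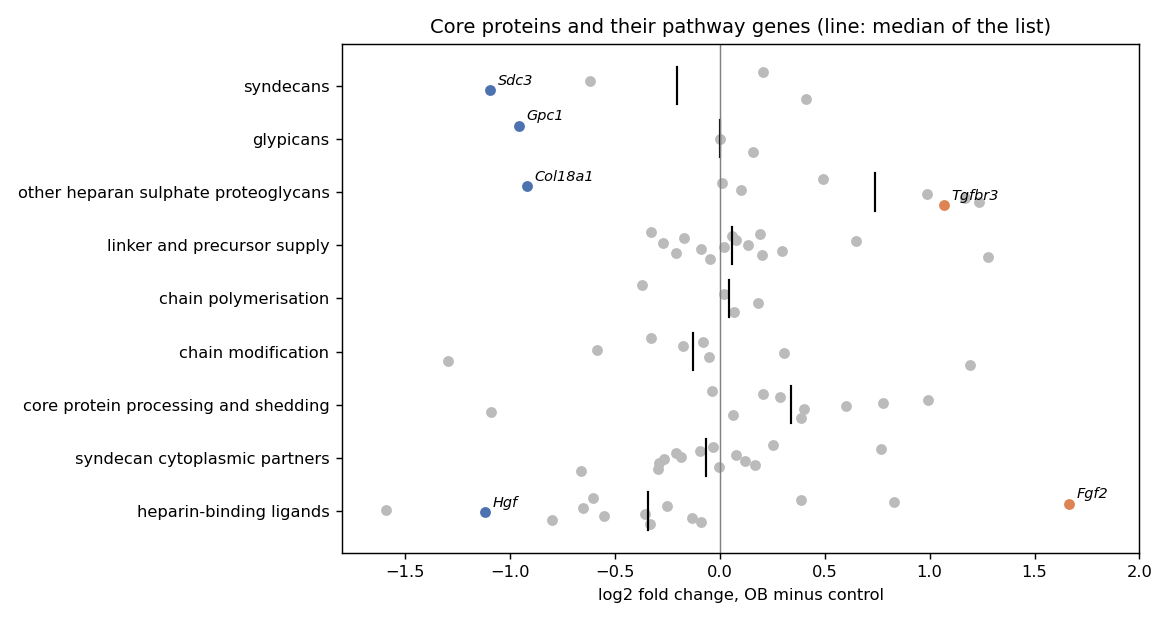
Log2 fold change of OB against control for each tested gene of the 2 families and of 7 lists of heparan sulphate genes, without that of chain removal, with the median of each list as a vertical line. Orange genes were called higher and blue genes lower; Sdc3, Gpc1, Col18a1 and Hgf are the blue ones, and Tgfbr3 and Fgf2 the orange ones.

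The genes with profiles closest to 3 members were found among 9612 tested genes, by the root mean square difference of centred log2 CPM over the 7 libraries. For Gpc1 they were Tmem106c (0.07), Ddit3 (0.11) and Tmem64 (0.12), with log2 fold changes of -0.92, -0.89 and -0.89. For Sdc3 they were Nadk2 (0.17), Cenpw (0.17) and Man2a1 (0.20), with log2 fold changes of -0.97, -1.09 and -0.80. The third member was Sdc4, highest in mean level per merged exon length over the 7 libraries (4 of them OB). By that length Sdc2 led in control. Closest to Sdc4 were Camkk2 (0.05), mt-Nd4 (0.06) and Paf1 (0.08), with log2 fold changes of 0.34, 0.31 and 0.38. Of these 9 genes Tmem106c, Ddit3, Tmem64 and Nadk2 passed (edgeR adjusted p = 0.0276, 0.00778, 0.00844 and 0.0248). Cenpw and Man2a1 did not pass with all libraries unblocked (0.0579 and 0.0522) and passed with the replicate block (0.0164 and 0.0169). Likeness over 7 libraries of 2 groups is a description, and the genes were picked for it.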

How the data were processed

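Messenger RNA of 7 libraries was measured with a TruSeq v2 kit after Trizol extraction, per the labels' protocols. Trimmomatic, HISAT2 and the build mm10 are named in the submitters' processing notes. The deposited counts are raw whole fragments per gene from featureCounts 1.6.4 with Ensembl 94 gene models, per the file headers, and its command sets no option for strand, for reads with several hits or for overlapping genes. The deposited exon length (bases, an other unit) was also used. Columns are numbered and were matched through the inputs of the counting command in the header, which equal the submitters' descriptions. That order was not checked independently.

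R 4.3.3 with edgeR 4.0.16 (filterByExpr, TMM factors 0.981 to 1.024, quasi-likelihood test) compared OB with control over 15441 genes. The code was tested on simulated data. The SE is the absolute log2 fold change divided by the square root of F. Log2 CPM used a prior count of 2. Symbols were found for 54409 of 54532 features. Replicates of a group differed by 15.16 to 173.41 chi-square per degree of freedom, above sampling noise. The p-values rest on the spread between these libraries, which may be technical. Same-numbered replicates deviated together (r = 0.167, 0.523 and 0.398 across 15441 genes), which met the rule for pairs (every r over 0.1), so values with the replicate block are given where they change a call. Control 2 also deviated with OB 1 (r = 0.209) and control 3 with OB 4 (0.27), which has no same-numbered control.

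The members and lists were chosen with earlier results of these data known. Named were all members, the called genes of each pathway list, at most 4 by p-value (where fewer than 2 passed, also the 2 of highest CPM per kb), and 3 profile neighbours (mean log2 CPM of at least 3) of 3 members. Alternatives were DESeq2 1.42.0, limma-voom (limma 3.58.1), other scalings, no filter, blocks, label sets and leaving out each library. Every limma-voom fit used quality weights, so its libraries did not count equally, unlike those of edgeR and DESeq2. The interaction with label set and the coding transcript length were added after seeing the data. The result of 1 named gene of the chain removal list is not reported here, though the counts over all lists include it.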

Additional observations from a re-analysis of the deposited data

Results flagged for a closer look

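The OB effect on Gpc4 differed between label sets by a test of the difference itself. It was 0.61 higher on the log2 scale in the libraries with no C number than in the C1 and C2 libraries (SE 0.13, interaction in edgeR, adjusted p = 0.0459). Gpc4 was higher in both OB libraries than in control 3, and lower in OB 1 than in control 1 and in OB 2 than in control 2. Of 15441 genes 1003 passed this test, and the set with no C number holds 1 control.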

How the results depend on the processing

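The counts of members lower in OB stayed within 2 to 3 under the other scalings, tools, filter, blocks and label sets, and ran from 0 to 2 when libraries were left out in turn. Members called higher were 1 in the C1 and C2 libraries (Sdc4) and 3 in those with no C number (Sdc1, Gpc4 and Gpc6), where a single control was assumed to vary like the OB libraries. Pathway genes higher and lower were 6 and 7 by DESeq2, 7 and 7 by limma-voom, 5 and 5 with the replicate block, 11 and 6 with the label set block, 8 and 4 in the C1 and C2 libraries, 24 and 18 in those with no C number, and 1 to 4 and 1 to 2 when libraries were left out. Over all genes, 667 higher and 574 lower became 1292 and 1129 by DESeq2, 1247 and 1081 by limma-voom, 1433 and 1256 with the label set block, 1030 higher in the C1 and C2 libraries, 3052 and 3413 in those with no C number, and 190 to 575 and 104 to 703 when libraries were left out. The cause was not tested. The replicate block changed no call other than those of Sdc2, Col18a1, Mmp14, Cenpw and Man2a1 among the members, pathway genes and profile neighbours named.

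Among the members and the pathway genes named, directions turned for values near 0 or with wide intervals. Sdc1 was -0.0088 by limma-voom. Gpc4 was 0.0011 with upper-quartile scaling, 0.12 with the replicate block, 0.14 with the label set block and 0.50 in the libraries with no C number, and -0.26 to 0.14 when libraries were left out. Gpc6 was -0.34 by limma-voom and -0.24 to 0.56 when libraries were left out (-0.24 without control 3). By limma-voom Ext2 was -0.16 and Extl3 -0.0576, and in the libraries with no C number Extl3 was -0.18, Ndst2 0.13 and Itgb1 -0.0878. When libraries were left out, Ext2 was -0.126 to 0.13, Extl3 -0.0539 to 0.17, Ndst2 -0.17 to 0.0202 and Itgb1 -0.0336 to 0.22.

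The shares depend on the length used. Without division by length they were, in control, 21.22% for Sdc2, 8.992% for Sdc3, 10.98% for Sdc4, 27.77% for Gpc1, 10.81% for Gpc4 and 3.57% for Gpc6, and in OB 23.7% for Sdc1, 5.15% for Sdc3, 17.68% for Sdc4, 17.74% for Gpc1, 13.57% for Gpc4 and 5.031% for Gpc6. With the longest coding transcript they were, in control, 17.96% for Sdc1, 20.51% for Sdc2, 22.7% for Gpc1 and 3.474% for Gpc6, and in OB 23.89% (Sdc4 22.86%), 15.45%, 13.59% and 4.579% for the same genes, with Gpc4 at 16.28%. At this depth Gpc2 and Gpc3 could not be compared.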
